A study of Mus musculus with 60 samples.

Results

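Genes of the proteasome were followed in spleen leukocytes of 3 mouse strains at 2 ages. The set held each gene with a single symbol in the annotation of the 430A or 430B array that reads Psma, Psmb, Psmc, Psmd, Psme, Psmf or Psmg and a number, other than the immunoproteasome genes Psmb8, Psmb9 and Psmb10. The rule gave 44 of the 18193 genes with a single symbol, on 96 probe sets. A floor of 50 in signal was reached by 5 or more of the 30 mice for 43 of these genes, on 85 probe sets. The gene left out was Psma8, an alpha subunit of the testis, whose probe set reached 50 in 3 mice and 91.6 at most. The probe set of Psme2 also carries another symbol, so Psme2 has no value here.

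The mice were females of NOD, which spontaneously develops autoimmune diabetes, of NON, a related strain that stays free of it, and of C57BL/6 (C57), a more distant strain without the disease. Each strain had 5 mice of 2 weeks and 5 of 4 weeks, bred from purchased stock, and each mouse gave 1 sample of leukocytes that had been neither treated nor cultured. RNA of each mouse was hybridised to a 430A and a 430B array, and the deposited values are linear intensities (MAS 5.0 signals). Differences are given on the scale of log2(signal + 10), which understates those of dim probe sets. A signal depends on the probes as well as on the RNA, so signals are compared here between mice and never between genes. Whether the strains differ in sequence under the probes was not tested, so comparisons between strains keep this limit.

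The leukocyte markers Ptprc, Coro1a and Laptm5 summed to a signal of 5845 to 24243 in the 30 mice, and the tested markers of pancreatic acinar cells, a neighbouring tissue, to 107 to 740. Median signals lay between 84.8 and 125.6 for 430A arrays and between 125.8 and 169.3 for 430B arrays. The ratio of the 3' to the 5' signal of Gapdh, which rises as RNA is degraded, was over 2 in 5 mice. Of these, 1 was a NON mouse of 2 weeks, 2 were NON mice of 4 weeks and 2 were C57 mice. The same ratio for actin ran from 0.988 to 7.02 over the 30 mice. Its highest values, 6.62 at 2 weeks and 7.02 at 4 weeks, were in NON mice. NOD replicate 3 of 4 weeks had a median correlation of 0.739 with the rest of its group, the lowest of the 30 mice. In whole spleen leukocytes, a smaller number of cells of a type and less RNA in each cell cannot be told apart.

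The proteasome is the protease that degrades most short-lived and misfolded proteins of the cytosol and nucleus, usually after they are marked with ubiquitin chains. Its 20S core is a barrel of alpha rings (Psma genes), which gate the entry, and beta rings (Psmb genes), which hold the active sites. The 19S cap recognises ubiquitin and unfolds the substrate. The base of the cap is a ring of ATPases (Psmc genes) with scaffold and ubiquitin-receptor subunits, and the lid carries the enzyme that removes ubiquitin. Other caps, the PA28 and PA200 activators (Psme genes), open the barrel without ubiquitin, and dedicated chaperones (Psmg genes and some Psmd genes) assemble both parts. Interferon gamma can replace the constitutive active sites with those of the immunoproteasome, which favours peptides that bind MHC class I.

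The constitutive active sites are Psmb5, Psmb6 and Psmb7, with chymotrypsin-like, caspase-like and trypsin-like activity. The transcription factor Nrf1 (Nfe2l1) is known to drive proteasome genes through antioxidant response elements, and NF-Y is known to act on many of them through CCAAT boxes. The RefSeq promoter windows of Psmb5, Psmb6 and Psmd14, the deubiquitinase of the lid, are shown as examples of matches to short patterns of these elements. Printed are the 250 bases before the start of transcription in the GRCm38.p6 reference, 5' to 3' on the strand of the gene. Capitals mark matches, on either strand, to TGA followed by any 4 bases and GC, the core of the antioxidant response element, and to CCAAT.
Psmb5 promoter (chr14:54617996-54618245, minus strand): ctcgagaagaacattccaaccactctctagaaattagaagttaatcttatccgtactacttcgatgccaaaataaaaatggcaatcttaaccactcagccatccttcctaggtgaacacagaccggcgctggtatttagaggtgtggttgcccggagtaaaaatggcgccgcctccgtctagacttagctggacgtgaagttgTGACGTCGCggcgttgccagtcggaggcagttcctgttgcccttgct
Psmb6 promoter (chr11:70525107-70525356, plus strand): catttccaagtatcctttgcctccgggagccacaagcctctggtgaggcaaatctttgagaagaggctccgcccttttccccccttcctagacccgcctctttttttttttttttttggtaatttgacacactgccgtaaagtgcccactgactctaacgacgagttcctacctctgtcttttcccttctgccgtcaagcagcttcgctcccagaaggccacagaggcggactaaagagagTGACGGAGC
Psmd14 promoter (chr2:61711444-61711693, plus strand): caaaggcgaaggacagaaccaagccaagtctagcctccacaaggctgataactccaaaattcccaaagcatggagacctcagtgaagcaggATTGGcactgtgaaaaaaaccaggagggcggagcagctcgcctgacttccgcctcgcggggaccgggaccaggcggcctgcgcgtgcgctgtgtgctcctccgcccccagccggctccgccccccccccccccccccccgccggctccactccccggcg
The capitals of Psmb5 and Psmb6 are a match to the first of these patterns, which begins 47 bases before the start in Psmb5 and 9 before it in Psmb6. Those of Psmd14 are the reverse complement of CCAAT. The windows searched also held the 50 bases after the start. They were at hand for 36 of the 43 genes, without Psmb1, Psmb2, Psmb7, Psmc3, Psmd3, Psmd7 and Psmg2. The first pattern stood in a window of 20 of the 36 (55.6%) and in 41.3% of the 32851 windows of all genes. A match to so short a pattern is not a bound site. CCAAT stood in 13 of the 36 (36.1%) and in 37.4% of all windows. Neither motif matched in the window of Psmd2, a scaffold of the cap whose signal is described below. The same held for the activator gene Psme1 and the inhibitor gene Psmf1. Each printed promoter holds a match, so those printed do not stand for the set.

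Each gene is described by its probe set with the highest mean signal, while shares of all probe sets are over each of the 38293 tested, duplicates of a gene included. The SD of log2(signal + 10) among mice of a group had a median of 0.26 over the 43 genes and of 0.56 over all tested probe sets. Shares of all probe sets therefore set genes of low spread against a more variable table. No share was taken over probe sets of like spread. Among the 43 genes the SD ran from 0.17 (Psmd5, a chaperone of the cap) to 0.948 (Psmb11, the beta subunit of thymic epithelium), 2 genes named after their values were seen. Psmb11 lay near the floor of 50, with group means of 56.8 to 147.5.

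The study asked which genes set the leukocytes of young NOD mice apart from both control strains. By the limma tests no proteasome gene passed the threshold for this, at either age. An F-test of the 3 strains was fitted with limma for each age, with p adjusted by Benjamini and Hochberg's method over the whole table, and 0 of the 43 genes passed an adjusted p of 0.05 at 2 weeks, where 1.66% of all probe sets did, and 0 passed at 4 weeks, where 1.51% did. The lowest adjusted p was 0.159 at 2 weeks (Psmg1, a chaperone of the core) and 0.202 at 4 weeks (Psmd1, a scaffold of the base). Psmg1 had a signal of 440.1 to 564.8 in the 5 NON mice of 2 weeks, above all 5 C57 mice (289.5 to 408.5), with the NOD mice (270.9 to 474.3) across both ranges. In the contrast of NOD with the mean of NON and C57, 0 of 43 passed at 2 weeks against 0.499% of all probe sets, and 0 at 4 weeks against 0.804%.

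Without adjustment, p was under 0.05 in the F-test for 7 of the 43 genes at 2 weeks (Psmc1, Psmd2, Psmd3, Psmd7, Psme4, Psmf1 and Psmg1), against 14.1% of all probe sets, and for 3 (Psmd1, Psmd2 and Psmf1) at 4 weeks, against 13.4%. In the contrast of NOD with the controls it was under 0.05 for 0 genes at 2 weeks, against 9.44% of all probe sets, and for the same 3 genes at 4 weeks, against 12.7%. The one-way test of the study's methods, which takes each probe set's own spread, was run on the same values with the same adjustment. Without adjustment its p was under 0.05 for 13 of the 43 genes at 2 weeks and for 5 at 4 weeks. These were more than the 7 and 3 of limma's F-test, and no share of all probe sets was counted for them. After adjustment this test called 0 of the 43 at 2 weeks (lowest adjusted p = 0.0637), where it called 1.74% of all probe sets. It called 1 at 4 weeks, where it called 1.7%. That gene was Psmd1, named here after its values were seen, with an adjusted p of 0.0216. Its mean signal at 4 weeks was 778.6 ± 43.7 (SD, n = 5) in NOD, 730.4 ± 96.7 in NON and 542.8 ± 49.1 in C57, so that C57 was the strain farthest from the others. The 5 NOD mice lay between 706.4 and 824.2, above the 5 C57 mice (485.1 to 610.2) and within the range of the NON mice (594.7 to 863.3).

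A missed threshold does not show that the strains were alike, so the intervals are given. The 95% interval of NOD minus controls lay within 1 log2 unit of 0, a 2-fold difference either way, for 41 of the 43 genes at 2 weeks and 42 at 4 weeks. Of the 38293 probe sets this held for 23097 at 2 weeks and 20169 at 4 weeks. Their intervals were wider, with median half-widths of 0.58 and 0.64 against 0.36 for the 43 genes at either age. Among the 43 genes the exceptions were Psmb11 at both ages and Psme3, a PA28 activator of the nucleus, at 2 weeks. The median difference over the 43 genes was -0.05 at 2 weeks and 0.05 at 4 weeks, and over all probe sets 0.06 and 0.05. Of the 43 genes 29 (67.4%, against 42.3% of all probe sets) lay below 0 at 2 weeks and 15 (34.9%, against 44.9%) at 4 weeks. By part of the proteasome, all 6 ATPases lay below 0 at 2 weeks by their brightest probe set (median -0.11). At 4 weeks 2 of the 6 did (median 0.09). The 3 other base subunits went from a median of -0.11 to one of 0.31. These counts depend on the probe set taken. Among the 24 genes with several kept probe sets, 16 had probe sets of differing sign at 2 weeks, Psmc2 and Psmc4 among them. At 4 weeks 13 did, with Psmc2, Psmc6 and Psmf1 among them. Differences ran from -0.35 (Psme1) to 0.36 (Psmd10) at 2 weeks and from -0.31 (Psmg4) to 0.39 (Psmd2) at 4 weeks.

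**Figure D1:**
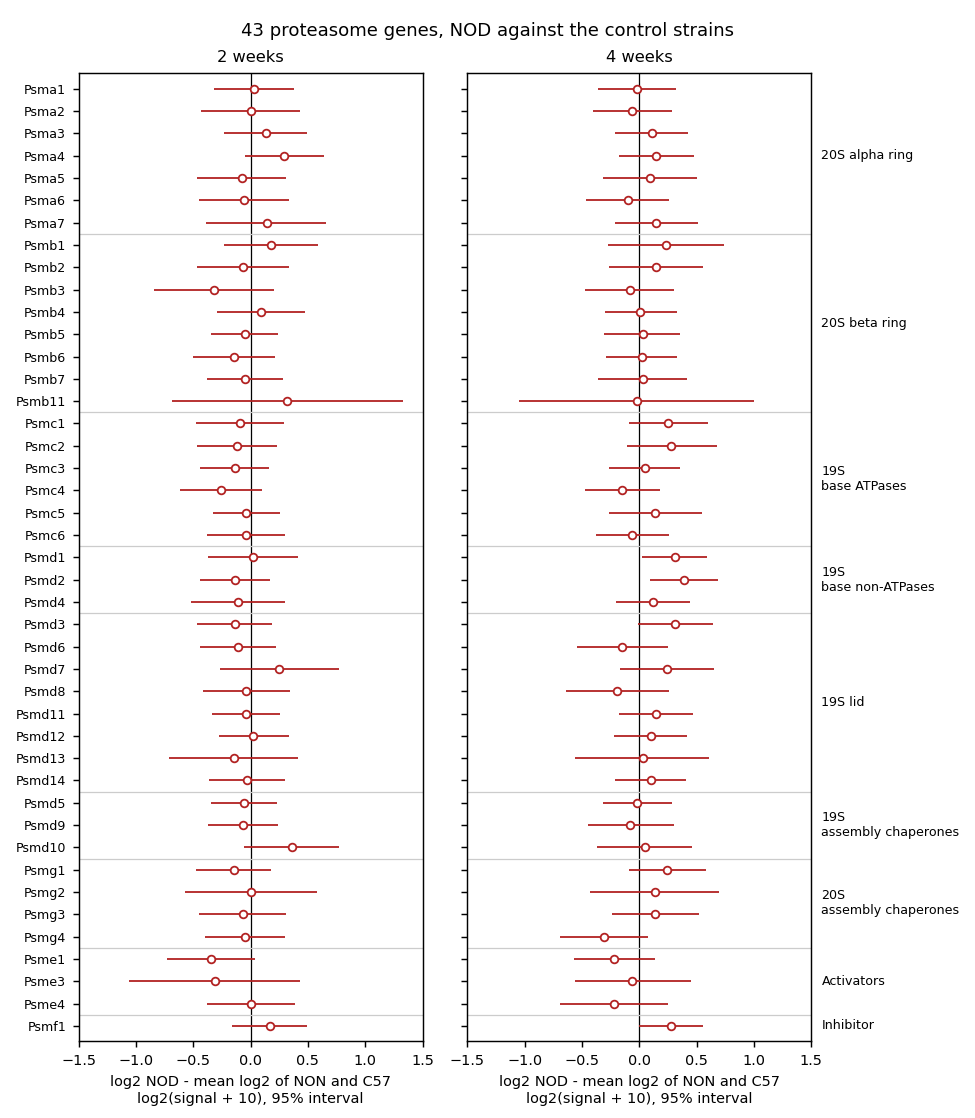
Difference in log2(signal + 10) between NOD mice and the mean of NON and C57 mice (horizontal axis, log2 units) for the 43 proteasome genes, grouped by the part of the proteasome, at 2 and at 4 weeks. Points are limma estimates from 15 mice per age and lines their 95% intervals. Open points mark genes that did not pass an adjusted p of 0.05, which holds for all points, and the estimates run from -0.35 to 0.39.

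Psmb5, the chymotrypsin-like subunit, had a mean signal of 986.7 ± 121.2 (SD, n = 5) in NOD, 1137.8 ± 151.5 in NON and 921.6 ± 90.6 in C57 at 2 weeks. Its difference of NOD from the controls was -0.05 (95% interval -0.35 to 0.24, limma adjusted p = 0.938) at 2 weeks and 0.03 (-0.31 to 0.36, adjusted p = 0.964) at 4 weeks. Psmb6, the caspase-like subunit, differed by -0.15 (-0.50 to 0.21) and 0.02 (-0.29 to 0.33), and Psmb7, the trypsin-like one, by -0.05 (-0.38 to 0.28) and 0.03 (-0.36 to 0.42). The mice of the 3 strains overlapped for each of these active sites at both ages. Psmd14 differed by -0.03 (-0.36 to 0.30) at 2 weeks and 0.10 (-0.21 to 0.41) at 4 weeks. Psmd4, a ubiquitin receptor of the cap, differed by -0.11 (-0.52 to 0.30) and 0.12 (-0.20 to 0.44). The probe sets of Psmd4 differed in sign at 2 weeks. Under other settings of the processing its difference ran from -0.19 to 0.14 at 2 weeks and from 0.09 to 0.32 at 4 weeks.

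Activator and inhibitor genes did not pass the test either. Psme1, a PA28 subunit that interferon gamma induces, had a signal of 1421.2 ± 312.6 in NOD, 1677.9 ± 345.3 in NON and 1931.1 ± 353.8 in C57 at 2 weeks (SD, n = 5 each; log2 difference -0.35, 95% interval -0.73 to 0.04, limma adjusted p = 0.59). Its mice overlapped between all strains. Psmf1, which encodes the inhibitor PI31, had a signal of 402.4, 419.4, 422.2, 433.7 and 423.8 in the NOD mice of 2 weeks and of 328.7, 333.3, 282.6, 290.6 and 311.1 in the C57 mice. In the NON mice it was 447.4, 300.4, 487.8, 476.2 and 597.6. The NOD mice were all above the C57 mice but inside the range of NON, and the F-test gave an adjusted p of 0.249 at 2 weeks and 0.33 at 4 weeks.

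At 2 weeks NON stood at the top of the 3 strain means for 34 of the 43 genes (79.1%), where it did so for 31.4% of all probe sets. C57 had the lowest mean for 27 of them (62.8%, against 40.2%). At 4 weeks NON had the highest mean for 9 of the 43 (20.9%, against 29.9% of all probe sets). These counts rest on the same mice as the change with age in NON below, and genes measured in the same RNA are not independent.

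Between 2 and 4 weeks, 3 proteasome genes fell in NON mice. In a limma fit to the 6 groups, 3 of the 43 genes (6.98%) changed with age in NON at an adjusted p under 0.05, against 1.46% of all probe sets. Counted by probe set, this was 3 of the 85 (3.53%). All 3 fell, and 0.65% of all probe sets fell at this threshold. They were Psmd2, the main scaffold of the base, Psmd3, a scaffold of the lid, and Psmc3, an ATPase of the base, which are all parts of the 19S cap. In NOD 0 of 43 genes passed (0.146% of all probe sets) and in C57 0 of 43 (0.46%).

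Psmd2 had a signal of 1578.3, 1519.3, 1726.6, 1645.1 and 1812.1 in the 5 NON mice of 2 weeks and of 1073.1, 761.3, 962.0, 1118.1 and 976.8 in those of 4 weeks. All 5 younger mice were above all 5 older ones, and the ratio of the means was 1.69 (log2 change -0.76, standard error 0.15, limma adjusted p = 0.00715). In NOD the signal was 1082.1, 1107.8, 1552.8, 1454.6 and 1204.8 at 2 weeks and 1331.1, 1269.1, 1249.0, 1628.5 and 1213.0 at 4 weeks. These groups overlapped, with a log2 change of 0.07 (95% interval -0.23 to 0.37). In C57 the change was -0.14 (-0.44 to 0.16), from 1181.8 ± 160.8 to 1066.1 ± 82.9 (SD, n = 5). The probe sets of Psmd2 differed in sign in C57. Under other settings of the processing, its change ran from -0.14 to 0.55 in C57 and from 0.07 to 0.33 in NOD.

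Psmd3 had a signal of 796.4, 620.4, 805.6, 915.3 and 792.5 in NON at 2 weeks and of 465.8, 358.4, 392.0, 521.6 and 627.4 at 4 weeks. The groups met at 1 mouse of each age, and the log2 change was -0.74 (standard error 0.16, limma adjusted p = 0.0172). It was 0.02 (95% interval -0.31 to 0.35) in NOD and -0.13 (-0.46 to 0.20) in C57. Psmc3 had a signal of 1194.2, 1019.1, 1103.2, 1135.9 and 1061.3 in NON at 2 weeks and of 803.6, 650.0, 761.6, 786.7 and 738.5 at 4 weeks. The younger mice were all above the older ones (log2 change -0.56, standard error 0.15, limma adjusted p = 0.04999), which places Psmc3 just inside the threshold. Psmg1, a chaperone of the core, lay just outside it (-0.61, adjusted p = 0.0568).

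**Figure D2:**
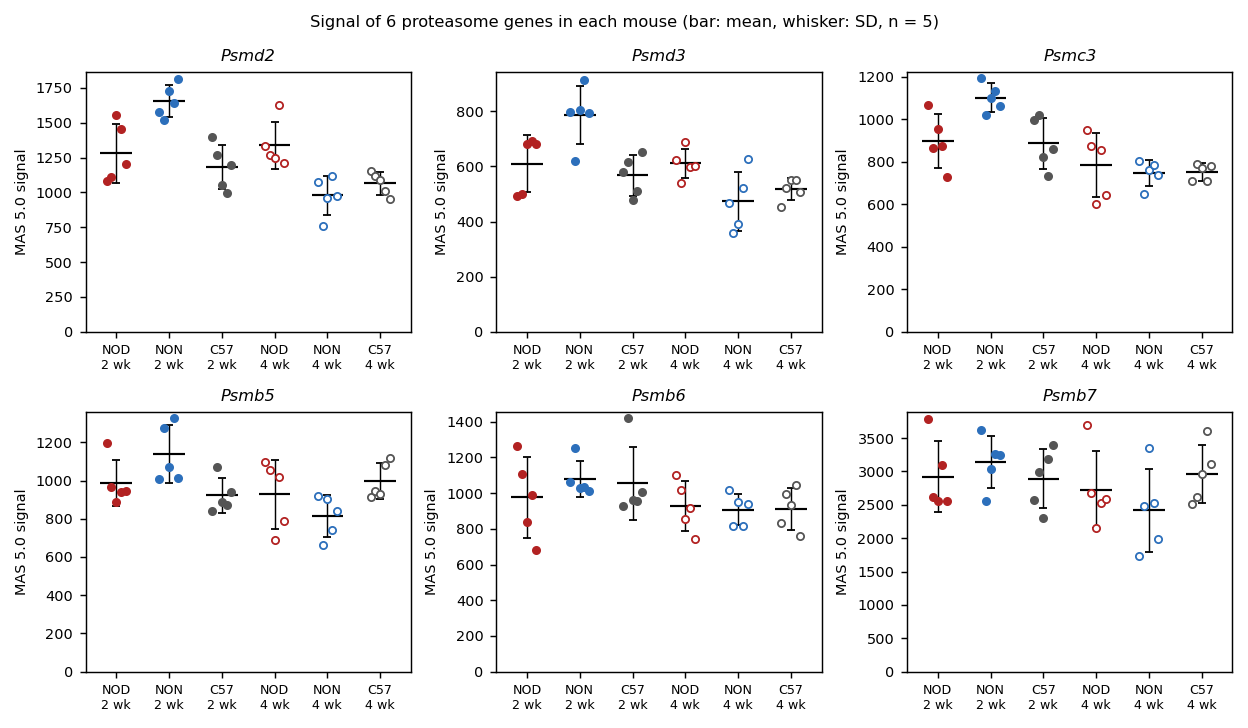
MAS 5.0 signal (vertical axis, linear and starting at 0) of Psmd2, Psmd3, Psmc3, Psmb5, Psmb6 and Psmb7 in each of the 30 mice, by strain and age. Filled points are mice of 2 weeks and open points mice of 4 weeks, with the mean as a bar and the SD as a whisker (n = 5). The NON mice of 2 weeks lie above the NON mice of 4 weeks for Psmd2 (1519.3 and above against 1118.1 and below) and Psmc3.

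The 3 calls held unequally under other settings. A fit to the 10 NON mice alone ended each of them, with an adjusted p of 0.156 for Psmd2, 0.227 for Psmd3 and 0.243 for Psmc3. Leaving out the 5 mice with a Gapdh ratio over 2, an alternative chosen after seeing the data, kept the call of Psmd3 (-0.96, adjusted p = 0.0389) and ended those of Psmd2 (-0.84, adjusted p = 0.0664) and Psmc3 (-0.61, adjusted p = 0.196).

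Over the whole set, the age change of most genes was below 0 in NON. These counts rest on the same NON mice as the calls and include the called genes, so they are no separate support. Genes measured in the same RNA are not independent. The age change was below 0 for 36 of the 43 genes (83.7%) in NON, against 49.8% of all probe sets, with a median of -0.28 against 0.00. It was below 0 for 27 of 43 (62.8%) in NOD, against 50.2% of all probe sets (median -0.05 against 0.00), and for 27 of 43 in C57, against 46.7% (median -0.06 against 0.03). Without adjustment, 15 of the 43 genes (34.9%) fell in NON at p under 0.05, against 6.47% of all probe sets, or 20 of their 85 probe sets (23.5%). In NOD 0 genes had an unadjusted p under 0.05 (8.9% of all probe sets), and in C57 1 did (6.7%), namely Psme4, which encodes PA200 and was named after its values were seen. For 9 of the 43 genes (20.9%) all 5 NON mice of 4 weeks were below all 5 of 2 weeks, as was true of 1.83% of all probe sets and of 10 of the 85 probe sets of the genes (11.8%). They were Psmb5, Psmc1, Psmc3, Psmc5, Psmd2, Psmd4, Psmd6, Psmd12 and Psmg1. No gene did so in NOD (0.948% of all probe sets) or in C57 (1.28%), where 1 of the 85 probe sets did.

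By its brightest probe set, every base and lid gene of the 19S cap had a value below 0 in NON, although the probe sets of Psmc4 and Psmd11 differed in sign. All 6 ATPases of the base lay below 0, with a median log2 change of -0.49, from -0.59 (Psmc1) to -0.09 (Psmc6), and 1 of the 6 passed the test. The 3 other base subunits had a median of -0.44 and the 8 lid subunits, all below 0, one of -0.28. In NOD and in C57, 5 of the 6 ATPases lay below 0 too (medians -0.05 and -0.16), with 5 and 6 of the 8 lid subunits (medians -0.1 and -0.07). In the core of NON, 5 of 7 alpha genes and 7 of 8 beta genes lay below 0, with medians of -0.16 and -0.25 and none past the test. Among the active sites the change was -0.48 for Psmb5 (95% interval -0.79 to -0.16, adjusted p = 0.121), -0.25 for Psmb6 (-0.59 to 0.09) and -0.41 for Psmb7 (-0.78 to -0.03).

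Chaperones and regulators of the proteasome had values on both sides of 0 in NON. Of the 3 chaperones of the cap 2 lay below 0 (median -0.01), and of the 4 chaperones of the core 3 did (median -0.15). Among the activators only Psme3 lay below 0 (-0.60, 95% interval -1.32 to 0.12), beside Psme1 (0.13, -0.26 to 0.52) and Psme4 (0.35, -0.12 to 0.81). The inhibitor Psmf1 was at -0.30 (-0.60 to 0.00). Psmd14 was at -0.19 (-0.51 to 0.14) and Psmd4 at -0.44 (-0.83 to -0.05, adjusted p = 0.298). The highest value was that of Psmb11 (1.08, -0.10 to 2.25). The parts of the proteasome were not tested against each other.

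**Figure D3:**
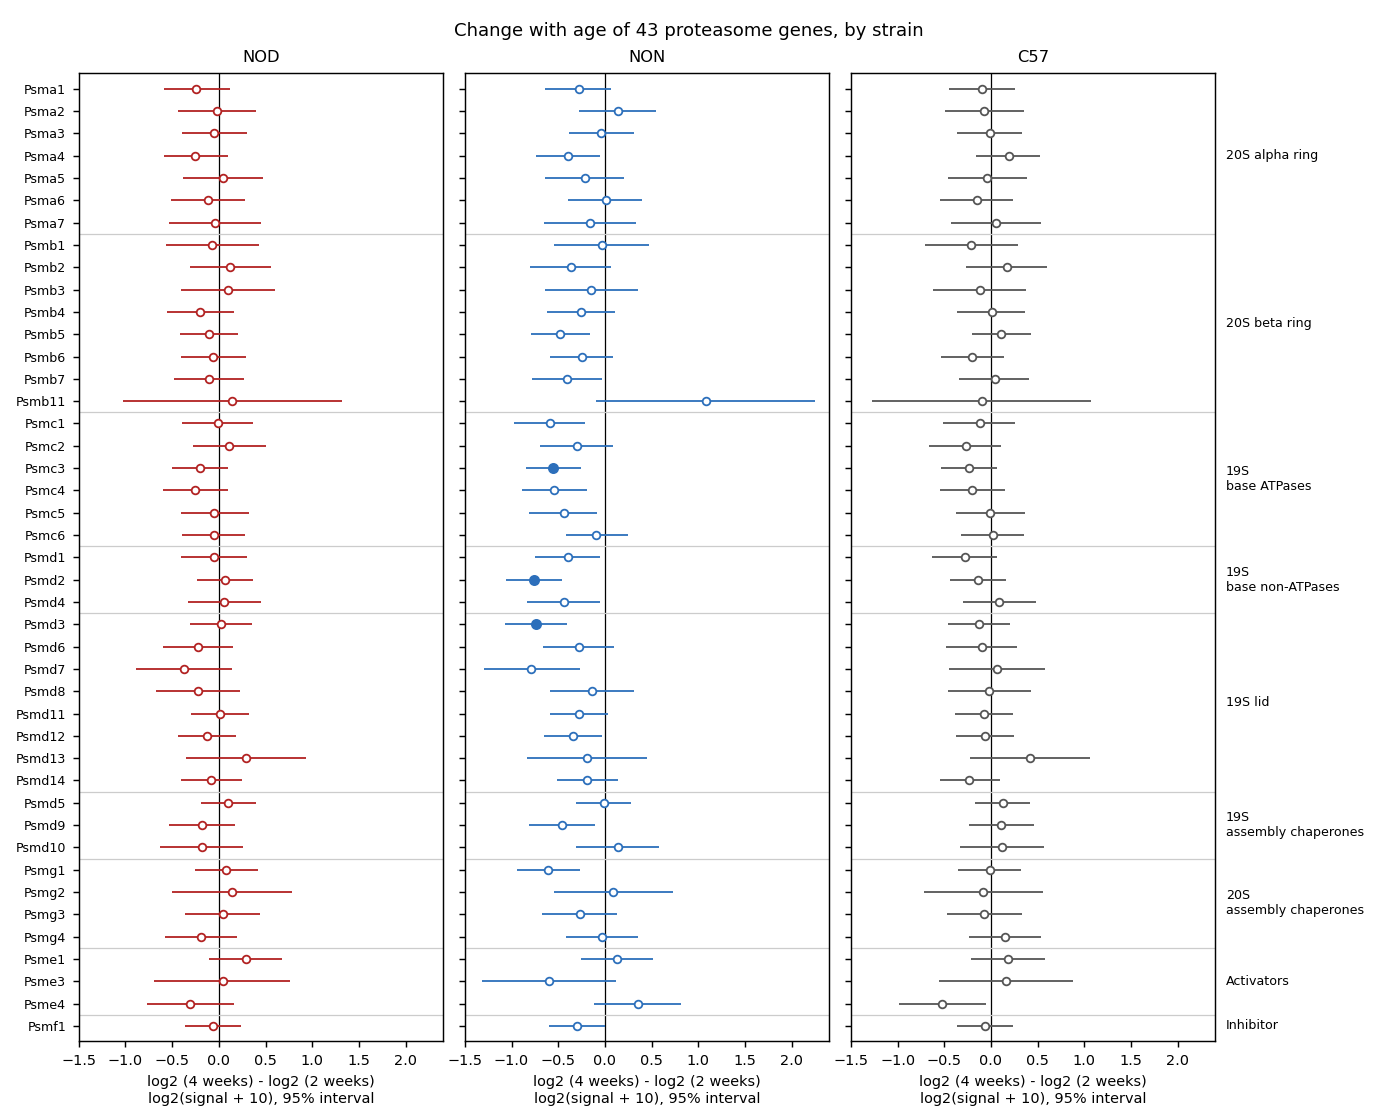
Change in log2(signal + 10) from 2 to 4 weeks (horizontal axis, log2 units) for the 43 proteasome genes in NOD, NON and C57 mice, grouped by the part of the proteasome. Points are limma estimates from 5 mice per group, lines their 95% intervals, and filled points passed an adjusted p of 0.05. In NON, 36 points lie left of 0 and 3 are filled, against 27 and none in each of the other strains.

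The change with age in NON was not shown to differ from that of the other strains. Tested directly, with contrasts added after seeing the data, 0 of the 43 genes passed an adjusted p of 0.05 for NON against NOD (0% of all probe sets passed) or for NON against C57 (0.00261%). Without adjustment p was under 0.05 for 4 genes against NOD (8.1% of all probe sets) and for 8 against C57 (6.8%). For Psmd2 the change in NON was lower than that in NOD by an estimate of -0.83 (95% interval -1.26 to -0.41, adjusted p = 0.355) and than that in C57 by -0.62 (-1.05 to -0.20, adjusted p = 0.679). The change with age in NOD against that of both controls was likewise past the threshold for 0 of the 43 genes and 0% of all probe sets. Without adjustment it had a p under 0.05 for Psmd2 and Psmd3, 2 of 43, against 6.2% of all probe sets.

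The median over the 43 genes of log2 values centred on each gene's mean gives 1 value per mouse. It was 0.17 to 0.30 in the NON mice of 2 weeks and -0.16 to -0.01 in those of 4 weeks, which did not overlap. It was -0.19 to 0.33 in NOD at 2 weeks and -0.20 to 0.24 at 4 weeks, and -0.13 to 0.11 and -0.13 to 0.02 in C57. The groups of NOD and of C57 overlapped between the ages. For the ATPases alone the medians of the mice were 0.24 to 0.43 in NON at 2 weeks and -0.23 to 0.01 at 4 weeks, again without overlap, while for the alpha ring they were -0.20 to 0.25 and -0.18 to 0.05, which overlapped.

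Markers of several cell types moved with age in the same NON mice. Here and below, a marker is counted as risen or fallen only if it passed an adjusted p of 0.05. This was in the limma fit to the 6 groups. Of all probe sets 1.46% passed in NON, 0.146% in NOD and 0.46% in C57. Markers that did not pass can have moved too. Of the T cell markers 4 of 6 rose (Cd3d, Cd3g, Cd4 and Cd8a). Cd3e (log2 change 1.02) and Trat1 (0.26) also lay above 0 without passing. The summed signal of the T cell markers was 1127 to 2343 at 2 weeks and 3613 to 4510 at 4 weeks. Of the NK cell markers 2 of 4 rose, with a summed signal of 836 to 2954 and 3974 to 5381. Of the B cell markers 1 of 5 rose (Cd22), with 11032 to 25879 and 24085 to 29883. The median log2 change of the 5 was 0.47. Of the granulocyte precursor markers 2 of 4 fell (Mpo and Ctsg). Elane (-1.07) and Prtn3 (-1.3) also lay below 0 without passing. The summed signal of the 4 was 6598 to 16138 at 2 weeks and 3195 to 4462 at 4 weeks.

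By the same count, 2 of 8 markers of dividing cells fell in NON (Aurkb and Birc5), with a median log2 change of -0.86 over the 8. Their summed signal was 10111 to 18076 at 2 weeks and 6365 to 10946 at 4 weeks. Of the platelet markers 1 of 4 fell (Ppbp), with 1149 to 3287 and 448 to 1035. Of the leukocyte markers 1 of 3 rose (Ptprc), with 5845 to 17293 and 14203 to 22199, and 0 of 6 erythroid and 0 of 6 macrophage markers passed. No tested marker had a group mean of 0. In C57, where no proteasome gene passed, 4 of 4 granulocyte precursor markers and 3 of 8 markers of dividing cells fell. In NOD 0 markers passed, although the summed signal of granulocyte precursors was 3334 to 8695 at 2 weeks and 1139 to 2882 at 4 weeks. The part of cell composition in the change in NON was not tested.

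**Figure D4:**
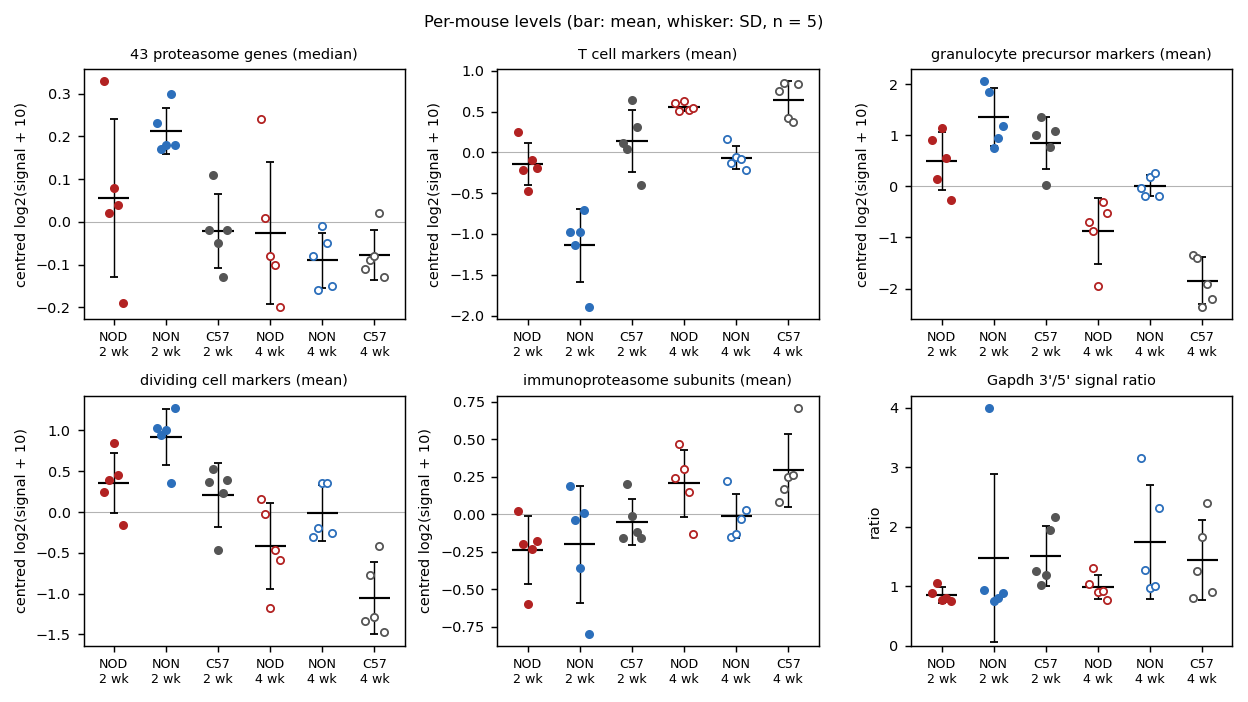
Values of the 30 mice by strain and age. The panels show the median of the 43 proteasome genes, the mean of T cell, granulocyte precursor and dividing cell markers and of the immunoproteasome subunits Psmb8, Psmb9 and Psmb10 (vertical axes, centred log2(signal + 10)), and the Gapdh 3'/5' signal ratio. Points are mice (filled at 2 weeks, open at 4), bars means and whiskers SDs (n = 5), and the proteasome median of NON lies at 0.17 and above at 2 weeks and at -0.01 and below at 4 weeks.

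Psma1, Psmb5 and Psmc5 had the same probe set on both arrays, so that the 430B array repeats the measurement on the same RNA. The log2 change with age in NON was -0.48 on 430A and -0.83 on 430B for Psmb5, -0.28 and -0.45 for Psma1, an alpha subunit, and -0.44 and -1.29 for Psmc5, an ATPase. The median change of the 100 probe sets on both arrays was -0.01 on 430A and -0.20 on 430B. The 5 NON mice of 4 weeks lay below the 5 of 2 weeks on both arrays for Psmb5 and Psmc5. In NOD and C57 the changes of the 3 genes lay between -0.31 and 0.11 on either array. Over the 30 mice the arrays correlated with r = 0.837 for Psmb5, 0.708 for Psma1 and 0.467 for Psmc5. A repeat on the same RNA adds no mice.

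Several genes had more than 1 probe set past the filter, and these did not always move alike. Of the 24 such genes, 15 had all their probe sets on the same side of 0 for the change in NON, 14 of them below it. In the 9 others the probe sets differed in sign, namely Psma3, Psma6, Psmb1, Psmc4, Psmd9, Psmd11, Psmg2, Psmg3 and Psmg4. Psmd2 was the gene whose probe sets differed in the call, as its probe set on 430B had a value of -0.28 (adjusted p = 0.84). When the mean of both was used, its change was -0.52 (adjusted p = 0.3). Over the 85 probe sets 64 (75.3%) lay below 0 in NON, 52 in NOD and 49 in C57.

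Of the other genes of the pathway, Tap1 was called between strains and none was called with age. Psmb8, Psmb9 and Psmb10, the active sites of the immunoproteasome, had log2 differences between the ages of 0.44, 0.10 and 0.03 in NON and of 0.40, 0.48 and 0.45 in NOD, none past the test. Of 8 other genes of the proteasome's assembly and accessory parts, 0 passed any test of strain or age, among them Pomp, the chaperone of core maturation (-0.11 in NON), and Uchl5, a deubiquitinase of the cap (-0.75, adjusted p = 0.0788). Of 9 shuttle and unfolding factors, such as Vcp (-0.11) and Rad23b (-0.46), 0 passed, and of 6 regulators 0 passed, with Nfe2l1 at 0.24 and Nfe2l2 at 0.05 in NON. The single ubiquitin-activating enzyme with a value, Uba6, did not pass either (-0.24). Of 9 genes of the interferon gamma response, Psmb8, Psmb9 and Psmb10 among them, Tap1, a peptide transporter, differed between the strains at both ages (F-test, adjusted p = 0.00443 and 0.00486) and 0 changed with age. C57 had the highest mean signal of Tap1, 826.1 at 2 weeks and 1201.7 at 4 weeks. It was 395.4 and 557.1 in NOD and 344.8 and 402.7 in NON. NOD against the controls did not pass for Tap1 (limma adjusted p = 0.388 and 0.534).

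Over the 30 mice, the genes outside the set whose log2 signal was most like the mean of the 43 were Ranbp1, a partner of Ran in nuclear transport (Pearson r = 0.881), Ndufa9, a subunit of respiratory complex I (0.859), Nhp2, a protein of small nucleolar particles (0.853), Lsm3, a splicing protein (0.827), and Mrpl51, of the mitochondrial ribosome (0.823). They were picked as the highest of all, so no test is given, and mice of a group share strain and age. With group means removed r was 0.758 to 0.841. Within the set, Psmc3 correlated best with the mean of the other members (r = 0.825), and Psme1 had the lowest value (-0.315). Over the 903 pairs of members the median correlation within groups was 0.145.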

How the data were processed

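RNA of 30 mice (3 strains, 2 ages, 5 mice per group) was measured on 430A and 430B arrays, 60 in all. The authors deposited MAS5 signals, a linear intensity scaled per array. Their methods give a target of 100, while the 2% trimmed mean of every array was 250. Probe sets were named from GEO's platform annotation. Control probe sets were removed, and of 100 probe sets on both arrays the 430A copy was used. A signal of at least 50 in at least 5 mice kept 38293 of 45037 probe sets. A gene's value is that of its probe set with the highest mean signal. Values were compared as log2(signal + 10), which understates differences of dim probe sets, with limma 3.58.1 (lmFit, eBayes; R 4.3.3) and p-values adjusted over the whole kept table (Benjamini-Hochberg). Strains were compared by F-test and by NOD minus the mean of the controls in the 15 mice of an age, and ages in a fit of the 6 groups. Scripts were tested on simulated data. The number of arrays limits the precision.

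Genes named are those past a test, Psmb5, Psmb6, Psmb7, Psme1, Psme3, Psmf1, Psmd14 and Psmd4, genes whose probe sets disagree, and the 5 most alike. Other genes given with values, such as Psmg1, Psmd1, Psme4, Psmd5, Psmd10, Psmg4, Psmb11, Psmc1, Psmc6, Psma1, Psmc5, Uchl5 and those listed behind a count, were named after their values were seen, as extremes, lowest p-values, members of a count or repeats on both arrays. The members and lists were chosen with earlier results of these data known.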

Additional observations from a re-analysis of the deposited data

Results flagged for a closer look

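In 5 groups of mice 1 value lay apart from the other 4 by more than Dixon's 95% limit for 5 samples (0.71 of the range), of 72 groups looked at for the named genes and for the median of the set. Chance flags about 1 group in 20. Psmb5 was at 1196.9 in NOD replicate 1 of 2 weeks (others 885.9 to 965.6). Psmb6 was at 1254.6 in NON replicate 2 of 2 weeks (others 1012.0 to 1061.5), the mouse with the highest Gapdh ratio, and at 1418.7 in C57 replicate 2 of 2 weeks (others 926.8 to 1009.1). Psmd2 was at 1628.5 in NOD replicate 4 of 4 weeks (others 1213.0 to 1331.1). Psmd4 was at 1723.2 in NON replicate 4 of 2 weeks (others 962.5 to 1108.9). Each was high. No difference of the age change between strains passed the test for a named gene.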

How the results depend on the processing

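Counts of 0 stayed at 0 under each alternative tried (pseudocounts of 1 and 50, no filter or a floor of 100, quantile normalization, array weights, a trended and robust prior, gene means, no _x_at or _s_at probe sets, and each mouse left out), except that the methods' ANOVA called 1 gene at 4 weeks. The 3 genes changed with age in NON became 2 without a filter and without _x_at and _s_at probe sets, 4 with a floor of 100, a pseudocount of 50, array weights or the trended and robust prior, 0 at an adjusted p under 0.005, 0 in a fit to the 10 mice of the strain and 1 without the 5 mice of a Gapdh ratio over 2. With 1 mouse left out they ranged from 1 (without NON replicate 5 of 2 weeks or NON replicate 2 of 4 weeks) to 5 (without NON replicate 2 of 2 weeks). Psmd2 kept its call in 30 of 30 such fits, Psmd3 in 28 (lost without NON replicate 5 of 2 weeks or NON replicate 2 of 4 weeks, adjusted p = 0.0535 and 0.0656) and Psmc3 in 5, with an adjusted p up to 0.137. The median change in NON stayed between -0.29 and -0.25 under the other settings and between -0.30 and -0.26 with 1 mouse left out. Same-numbered mice of different groups did not deviate together (correlations -0.15 to 0.15), and with the replicate number as a block 3 genes were called, as without it. The median half-width of the 95% intervals of the 43 genes was 0.36 for NOD against controls and 0.38 for an age change, and this limits what 5 mice per group can show.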
